A study of Rattus norvegicus with 9 samples.

Results

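The genes described are those of the heterotrimeric G proteins and of their regulators, the RGS genes. A gene was included when its only symbol in the annotation of the array platform named a G protein alpha, beta or gamma subunit, with Gnal left out, or began with Rgs. This gave 47 of 15866 probe sets, for 35 of 10411 genes. The rule used no expression values, though it was set with earlier results of these data known. They comprise 13 probe sets for 9 alpha subunits, 8 for 5 beta subunits, 7 for 6 gamma subunits and 19 for 15 RGS genes. Probe sets in the lowest 40% by mean were not tested, which left 32 of 9520 probe sets, for 23 of 6793 genes.

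Prefrontal cortex came from 9 individual male Lewis rats, an inbred strain, weighing 200 to 250 g. The rats received no treatment, were housed singly and were killed 12 days after their last behavioural test; their age is not given in the sources used here. They form 1 group, and each rat has 1 Affymetrix array and 1 value for each of 4 behavioural measures (startle, locomotion, the plus maze and feeding on sugar), whose units are not given. Each comparison therefore asks whether a gene's log2 level followed a behaviour over the 9 rats, and the number of arrays limits its precision.

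A receptor coupled to a heterotrimeric G protein makes the alpha subunit exchange GDP for GTP, after which alpha and the beta-gamma pair part and act on enzymes and ion channels. The class of alpha subunit sets the target: Gs stimulates adenylyl cyclase, Gi and Go restrain it, and Gq and its relatives activate phospholipase C beta. RGS proteins speed the hydrolysis of GTP by alpha subunits and so shorten the signal, and in cortex this machinery serves the receptors for dopamine, serotonin, noradrenaline and acetylcholine and the metabotropic receptors for glutamate and GABA.

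The arrays were alike, with correlations between pairs of arrays of 0.973 to 0.996 over the probe sets tested. Their medians over all 15866 probe sets were 4.11 to 4.28 log2 units. Rats 8 and 9 differed from the rest: in 26.9% of the probe sets tested, both lay above or both lay below rats 1 to 7. The choice of this pair rests on these arrays and the labels name no batch, so each relation is also given over rats 1 to 7. The cortical label was set against markers of cell types. Snap25, Rbfox3 and Stmn2 of neurons, Slc17a7 and Camk2a of excitatory neurons and all 5 inhibitory markers listed were among the probe sets tested. Of 5 striatal markers, Ppp1r1b and Penk were among them and the other 3 were not, and the choroid plexus had 1 of 3. Markers of microglia (4 of 6), endothelium (3 of 5), pericytes (2 of 5), meninges (4 of 5) and red blood cells (2 of 4) were also among the probe sets tested. Being tested does not show that a marker was expressed. Pdgfrb and Abcc9 of pericytes, Alas2 of red blood cells and Folr1 of choroid plexus had means of 3.87, 3.34, 3.30 and 3.48. The lowest mean tested was 3.22, while Cldn5 of endothelium and Hbb of red blood cells had 9.26 and 10.8. In bulk tissue, fewer cells of a type and less RNA per cell cannot be told apart. For 17 of the 32 G protein and RGS probe sets at least 2 arrays carried the identical value, as did 47.0% of all probe sets tested.

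Promoters are shown for 3 members whose regulation is tied to neuronal activity or that had the smallest limma p in a comparison. Rgs2 and Rgs4 are RGS genes whose RNA is known to respond to neuronal activity. Gnao1 had the smallest limma p among positive slopes for the plus maze, each gene taken by its probe set with the highest mean. Other genes that led a comparison, such as Gnai2 for startle, are not shown. Each sequence holds the 250 bases before the RefSeq start on the minus strand, in build GRCr8. Capitals mark CGTCA or its complement TGACG, the letters of a cAMP response half-site, and TATAAA on either strand. The Gnao1 stretch lies at chr19:11198438-11198687 and is 83.6% G and C, the Rgs2 stretch at chr13:58352667-58352916 (72.4%) and the Rgs4 stretch at chr13:84475885-84476134 (54.4%).
Gnao1: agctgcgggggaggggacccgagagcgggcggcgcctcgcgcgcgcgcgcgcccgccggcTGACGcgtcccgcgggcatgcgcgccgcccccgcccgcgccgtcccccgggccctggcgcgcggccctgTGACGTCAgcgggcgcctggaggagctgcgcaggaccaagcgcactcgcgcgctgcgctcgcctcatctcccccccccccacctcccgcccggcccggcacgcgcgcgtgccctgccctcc
Rgs2: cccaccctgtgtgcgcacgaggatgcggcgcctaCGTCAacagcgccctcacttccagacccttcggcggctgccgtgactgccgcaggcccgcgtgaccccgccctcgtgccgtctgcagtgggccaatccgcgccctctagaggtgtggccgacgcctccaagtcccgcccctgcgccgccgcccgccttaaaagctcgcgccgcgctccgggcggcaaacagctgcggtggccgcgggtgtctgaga
Rgs4: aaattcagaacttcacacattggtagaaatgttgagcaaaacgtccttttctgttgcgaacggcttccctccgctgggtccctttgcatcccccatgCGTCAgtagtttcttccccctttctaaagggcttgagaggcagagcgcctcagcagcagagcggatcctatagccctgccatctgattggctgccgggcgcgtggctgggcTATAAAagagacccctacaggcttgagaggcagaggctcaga
Over both strands the half-site occurred 3 times in the Gnao1 stretch, as part of the palindrome TGACGTCA and once apart from it, and 1 time each in those of Rgs2 and Rgs4. TATAAA occurred 1 time in the Rgs4 stretch and was not among the letters of the other 2. The RefSeq table matched 30 of the 35 genes, with 32 promoters. The half-site was found for 9 of these genes, against 18.2% of 33469 promoters of the same length. All 3 stretches shown hold it, so they do not stand for the group. The palindrome, which contains the half-site, was found for 1 gene, Gnao1, against 1.59%. TATAAA was found for 5 genes against 12.9%, and GGGCGG, a GC box, or its complement CCGCCC for 19 genes against 30.5%. A match is a description of letters.

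By the probe set with the highest mean for each gene, the alpha subunits of the Gi and Go class gave the widest differences between rats among the alpha subunits. Gnai2 (probe set 1367844_at), a widely expressed inhibitor of adenylyl cyclase, had a lowest value of 7.06, a median of 7.65 and a highest value of 8.49 log2 units, a 2.69-fold span. Rat 1 was lowest and rats 8 and 9 were highest, both above all others. Gnai1 (1387505_at), its close relative in neurons, ran from 8.21 in rat 4 through a median of 8.67 to 9.03 in rat 7. Gnao1 (1368879_a_at), the Go subunit that is plentiful in brain membranes, ran from 8.83 in rat 3 through 9.35 to 9.71 in rat 6. For both genes rats 8 and 9 lay inside the range of the others. Gnaz (1368185_at), a Gi relative that pertussis toxin does not modify, had values of 7.87, 8.18 and 8.39 as lowest, median and highest. Rat 6 stood alone at the low end and rats 4 and 5 were highest.

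Gnas (1369897_s_at), which encodes the Gs subunit that stimulates adenylyl cyclase, ran from 12.36 in rat 9 through 12.61 to 12.77 in rat 4, while its second set (1387906_a_at) had a 2.21-fold span and an SD of 0.45. Gna12 (1371798_at), an alpha subunit of the G12 class, ran from 9.31 in rat 1 through 9.51 to 9.75 in rat 3. No probe set of the Gq class was tested: Gnaq, Gna11 and Gna15, which activate phospholipase C beta, had 1 each with means of 2.45, 2.01 and 1.85, all in the lowest 40%. Such a value does not show that the RNA was absent.

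Among beta subunits, Gnb1 (1375705_at), a common partner of alpha subunits in brain, had the widest spread of the 32 probe sets, with an SD of 0.52 log2 units over the 9 rats. Its values ran from 10.75 in rat 7 through a median of 12.00 to 12.60 in rat 9, a 3.59-fold span. Rat 7 lay apart from every other rat and rats 8 and 9 were the highest. Gnb2 (1398863_at), another common beta subunit, ran from 10.32 in rat 9 through 10.40 to 10.66 in rat 3. Gnb5 (1382105_at), which pairs with RGS proteins of the R7 family in place of a gamma subunit, ran from 9.18 in rat 9 through 9.23 to 9.50 in rat 8. Gnb4 (1371071_at) ran from 3.10 in rat 9 through 3.19 to 3.36 in rat 3, and its mean of 3.22 lay at the lowest mean tested, which was also 3.22. Gnb3, known from cone photoreceptors, was not tested.

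Of the gamma subunits, which anchor the beta subunit to the membrane, Gng5 (1387342_at) varied most. It ran from 7.00 in rat 8 through 7.65 to 7.94 in rat 2, with rats 7, 8 and 9 below the other 6. Gng3 (1373202_at), a gamma subunit of neurons, ran from 10.83 to 11.21 and Gng10 (1388455_at) from 9.43 to 9.74. Gng11 (1367902_at) ran from 3.57 to 3.94, Gng8 (1370843_at) from 4.08 to 4.36 and Gng7 (1368957_at), known from the striatum, from 3.19 to 3.38. Rat 9 was lowest for Gng3 and Gng8 and rat 5 for Gng7, Gng10 and Gng11.

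Of the RGS genes, those of the R4 family, small proteins that act on Gi and Gq, included the narrowest and the R12 family the widest spread. Rgs2 (1387074_at), which acts mainly on Gq, ran from 8.70 in rat 3 through 8.72 to 8.90 in rat 1. Rgs4 (1368505_at), a regulator of cortical neurons, ran from 10.98 in rat 9 through 11.12 to 11.33 in rat 1. Rgs3 (1367957_at) ran from 4.85 to 4.93, with an SD of 0.026. Rgs7 (1368373_at), the R7 member that binds Gnb5, ran from 9.34 in rat 3 through 9.46 to 9.56 in rat 4. In the R12 family, Rgs12 (1387066_a_at), which carries further protein interaction domains, ran from 6.23 in rat 7 through 7.00 to 7.51 in rat 8. Rgs14 (1369045_at), known from hippocampal area CA2, ran from 5.98 in rat 3 through 6.48 to 6.81 in rat 6. Rgs10 (1390707_at), found in neurons and microglia, ran from 8.95 in rat 9 through 9.44 to 9.59 in rat 5. Rats 8 and 9 were the lowest of the 9 for Rgs10 and Rgs4.

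Not tested among the RGS genes were Rgs1 and Rgs18 of blood and immune cells, Rgs5 of pericytes, Rgs9 of the striatum, Rgs8 of Purkinje cells, and Rgs16, Rgs19 and Rgs22. Over the 15 probe sets not tested, means ran from 1.85 to 2.96. Over the 32 tested, the median SD between rats was 0.14 log2 units, against 0.19 over all 9520, and in rats 1 to 7 it was 0.13 against 0.16. Among probe sets with a mean above 8 it was 0.15 over 19 members against 0.18 over 3061.

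**Figure D1:**
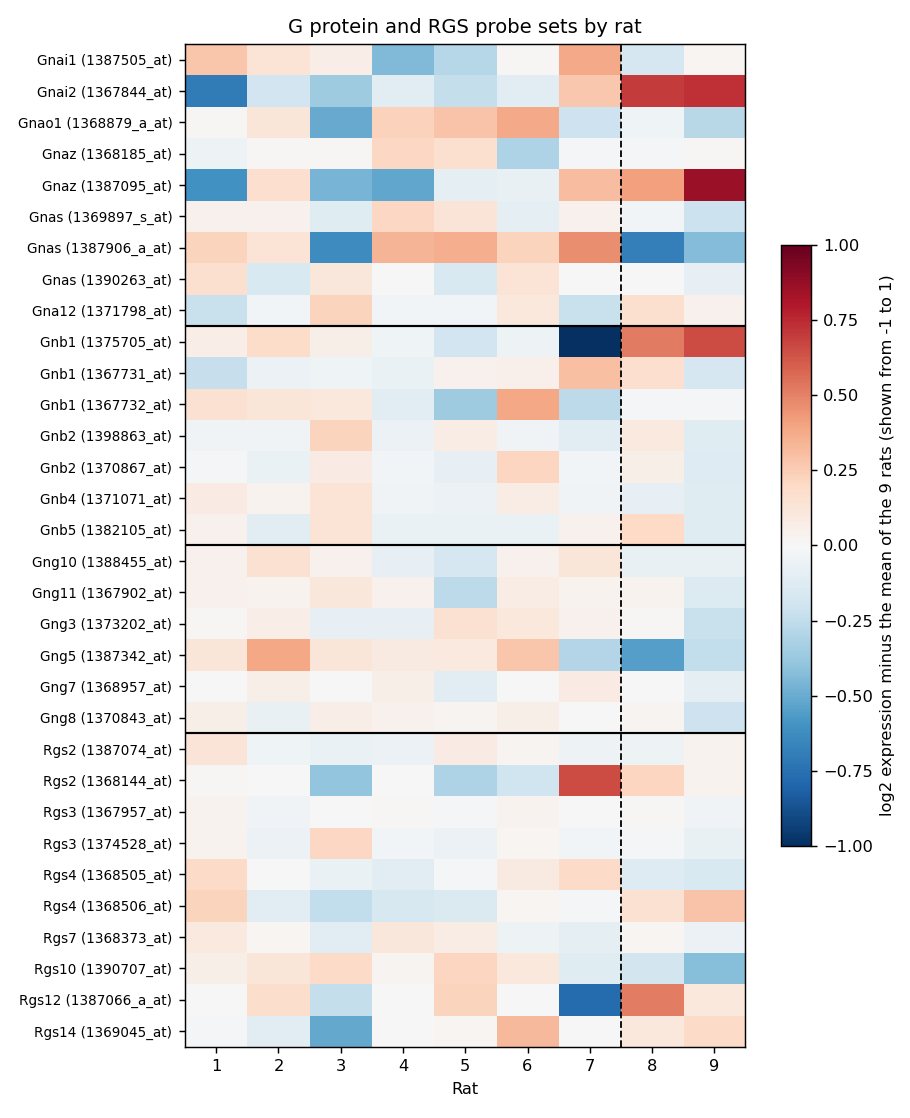
Log2 expression of the 32 G protein and RGS probe sets tested, each minus its own mean over the 9 rats, with 1 column per rat and colour from -1 to 1 log2 units. Horizontal lines part alpha, beta, gamma and RGS probe sets, and the dashed line sets rats 8 and 9 apart; Gnb1 in rat 7 and Gnai2 in rats 8 and 9 stand out.

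Startle ran from 67.7 to 501 with an SD of 142 over the 9 rats, and expression was fitted as a slope in log2 units per SD of the measure. Gnai2 had the slope farthest from 0 among the 23 genes, -0.35 ± 0.11 (SE, n = 9; limma adjusted p = 0.359). Gng5 and Gnb4 had positive slopes of 0.20 and 0.076. None of the 32 probe sets passed an adjusted p of 0.05 in limma (0 of 9520 in all, 0%). At an unadjusted p under 0.05, 4 of 32 had a slope, 2 positive and 2 negative, where 13.2% of all probe sets had one (8.9% positive, 4.34% negative), which is near the share of the members. In genes this was 3 of 23.

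For Gnai2 the values of the rats with the lowest startle, rats 8 and 7, were 8.46 and 8.02, and those of the rats with the highest, rats 3 and 1, were 7.41 and 7.06. Pearson r was -0.742 and Spearman rho -0.683 (exact p = 0.0237 and 0.0503 by permutation, 0.380 and 0.471 adjusted over 9520 probe sets). With rats 1 and 3 removed, whose startle lay at the greatest distance from the median, r became -0.567. In rats 1 to 7 it was -0.739 (exact p = 0.0508 by permutation). Leaving out each rat in turn gave slopes from -0.43 to -0.30, with the highest limma p, 0.0531, without rat 8. The slope was -0.23 with rats 8 and 9 both left out and -0.20 with a term for them. Cell type markers were set beside startle. The mean level of the 5 inhibitory neuron markers ran from 7.62 to 8.29 log2 units and had r = -0.814 with startle (exact permutation p = 0.00344, adjusted p = 0.0620 over 18 gene lists). In rats 1 to 7 this r was -0.750. The markers of this list differed: Gad2, which makes GABA, had a startle slope of -0.65 at a mean level of 4.13 and lay 1.78 log2 units higher in rats 8 and 9. Slc32a1 and Sst had slopes of -0.16 and -0.081, while Gad1 and Pvalb had slopes of 0.019 and 0.093. The 3 neuron markers tested, of 4 listed, ran from 11.20 to 11.67 and had r = -0.676 (exact permutation p = 0.0439, adjusted p = 0.264). Their r was -0.812 in rats 1 to 7. Their part in the Gnai2 relation was not tested. Gnai2 itself had r = 0.0622 with the neuron markers, -0.322 with the 4 microglial markers and -0.299 with the 3 endothelial markers (exact permutation p = 0.873, 0.400 and 0.444, each adjusted p at least 0.621 over 7 relations).

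Gnb4 spanned only 1.20-fold between the lowest and highest rat, rat 9 and rat 3. Its slope was 0.076 ± 0.028 (SE, n = 9; limma p = 0.0233, 0.359 adjusted), with r = 0.877 and rho 0.862 (exact p = 0.00203 and 0.00438 by permutation, 0.343 and 0.358 adjusted). Without rats 1 and 3 r was 0.713, and in rats 1 to 7 it was 0.954 (exact p = 0.000794 by permutation). Without rat 3 its limma p was 0.0778. After quantile normalization again its slope was 0.039 (limma adjusted p = 0.578), and with a term for rats 8 and 9 it was 0.063 (limma adjusted p = 0.530). In both of these fits its unadjusted p was above 0.05. Its values lie at the low end of the arrays, and the level of that end of each array had r = 0.627 with startle.

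Gng5 had a slope of 0.20 ± 0.078 (SE, n = 9; limma p = 0.0299, 0.359 adjusted), r = 0.667 and rho 0.800 (exact p = 0.0507 and 0.0138 by permutation, 0.384 and 0.378 adjusted). Its r was 0.858 without rats 1 and 3 and 0.432 in rats 1 to 7 (exact p = 0.344 by permutation), and its limma p was 0.182 without rat 8. Rgs14 had a slope of -0.11 ± 0.071 (SE, n = 9; limma p = 0.153, 0.49 adjusted), r = -0.481 and rho -0.477 (exact p = 0.191 and 0.198 by permutation, 0.536 and 0.577 adjusted), and its r was 0.271 without rats 1 and 3 and -0.428 in rats 1 to 7. Smaller slopes were 0.10 for Rgs10, 0.052 for Gng11, -0.043 for Gnaz and -0.079 for Rgs12. The slope of Rgs12 was 0.058 without rats 8 and 9.

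By class, 5 of 6 gamma and 5 of 7 beta probe sets had positive startle slopes, 6 of 9 alpha probe sets negative ones, and RGS probe sets 5 of each. Over all 32 members 18 slopes were positive, with a median of 0.010, against 61.5% positive and a median of 0.021 over all probe sets. The fourth probe set at an unadjusted p under 0.05 was the second Gnaz set (1387095_at), with a slope of -0.31 (limma adjusted p = 0.362); it was chosen after its values were seen. The count in rats 1 to 7 was 4 of 32 (14.6% of all probe sets), of which 2, Gnai2 and Gnb4, were shared with the count over 9 rats. Gng5 and the second Gnaz set were no longer under 0.05 there, while the Gnb1 set 1367732_at and the Gnas set 1387906_a_at were, both named after their values were seen. None had an adjusted p under 0.05 in rats 1 to 7.

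**Figure D2:**
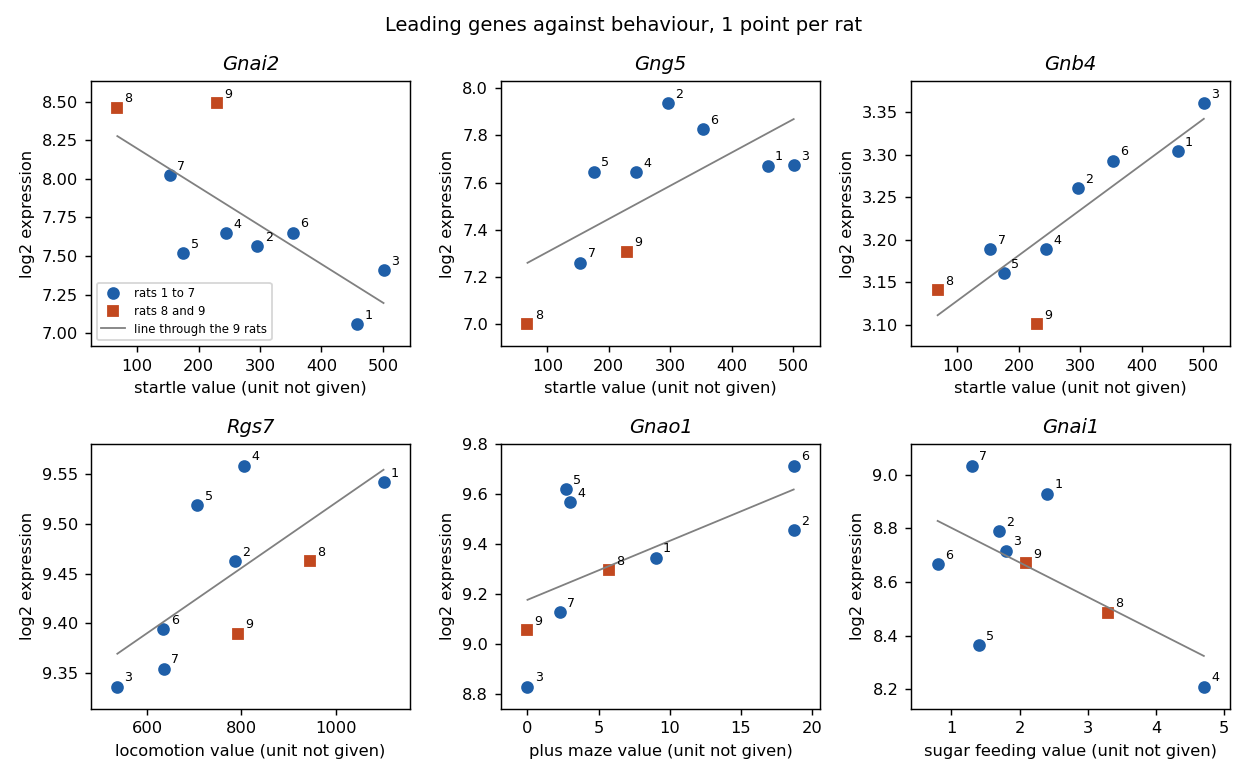
Log2 expression of 6 genes (vertical axis) against the behaviour each is described with (horizontal axis, unit not given), with 1 numbered point per rat, squares for rats 8 and 9 and a least-squares line over the 9 rats. Gnai2 lies at 8.46 in rat 8, the rat with the lowest startle, and at 7.06 in rat 1, and Gnb4 spans only 3.10 to 3.36.

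Locomotion ran from 536 to 1102 with an SD of 173. Genes were ranked by their probe set with the highest mean. Among positive slopes that of Rgs7 then had the smallest limma p, at 0.056 ± 0.033 log2 units per SD (SE, n = 9; limma adjusted p = 1.00), and among negative slopes that of Gna12, at -0.059 ± 0.054 (SE, n = 9; limma adjusted p = 1.00). All 6 gamma subunits had negative slopes, from -0.062 to -0.0020. Positive slopes were found for 8 of 10 RGS probe sets, where 41.0% of all probe sets had one. None of the members passed the test: 0 of 32 passed an adjusted p of 0.05 in limma (0% of all). At an unadjusted p under 0.05, 1 of 32 passed (1.96% of all). That one was the second Rgs4 probe set (1368506_at), at 0.12 ± 0.053 (SE, n = 9; limma adjusted p = 1.00), named after its values were seen. The Rgs4 set with the highest mean (1368505_at) had a slope of 0.010. The count was 0 in rats 1 to 7 (4.37% of all).

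For Rgs7 the values were lowest in rat 3, at 9.34, and highest in rats 4 and 1, at 9.56 and 9.54. Rat 3 also had the lowest locomotion and rat 1 the highest. Pearson r was 0.687 and Spearman rho 0.711 (exact p = 0.0388 and 0.0371 by permutation, both 1.00 adjusted). With rats 1 and 3 removed, whose locomotion was the most extreme, r became 0.426, and in rats 1 to 7 it was 0.770 (exact p = 0.0246 by permutation). Rgs12 had a slope of 0.17 ± 0.11 (SE, n = 9; limma p = 0.133, 1.00 adjusted), with r = 0.491 and rho 0.458 (exact p = 0.176 and 0.224 by permutation, both 1.00 adjusted), 0.721 without rats 1 and 3 and 0.355 in rats 1 to 7.

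On the negative side, Gna12 had r = -0.383 and rho -0.390 (exact p = 0.311 and 0.306 by permutation, both 1.00 adjusted). Its r took the opposite sign, 0.562, without rats 1 and 3, and was -0.648 in rats 1 to 7. Rgs10 had a slope of -0.054 ± 0.071 (SE, n = 9; limma p = 0.462, 1.00 adjusted), r = -0.263 and rho -0.50 (exact p = 0.489 and 0.178 by permutation, both 1.00 adjusted). Its r was -0.366 without rats 1 and 3 and -0.140 in rats 1 to 7. Other slopes were 0.22 for Gnb1, 0.033 for Rgs2, -0.028 for Gnb2 and -0.062 for Gng5, and that of Gng5 was 0.032 without rats 8 and 9. The Gnb1 value is that of 1375705_at, and the sets 1367731_at and 1367732_at had -0.069 and 0.020. Over the members 16 of 32 slopes were positive, with a median of -0.00096, against 41.0% and -0.010 over all probe sets.

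The plus maze ran from 0 to 18.7 with an SD of 7.36. Genes were again ranked by their probe set with the highest mean. Gnao1 then had the positive slope of smallest limma p, 0.17 ± 0.081 log2 units per SD (SE, n = 9; limma adjusted p = 0.999), and Gnaz the negative slope of smallest limma p, -0.088 ± 0.046 (SE, n = 9; limma adjusted p = 0.999). All 6 gamma probe sets and 8 of 10 RGS probe sets had positive slopes, where 58.2% of all probe sets did. None of the 32 members passed an adjusted p of 0.05 in limma (0% of all), and 1 passed an unadjusted p under 0.05 (2.99% of all). It was the Gnb1 probe set 1367732_at, at 0.15 ± 0.061 (SE, n = 9; limma adjusted p = 0.999), named after its values were seen. The Gnb1 sets 1375705_at and 1367731_at had slopes of 0.045 and -0.011. The count in rats 1 to 7 was 2 of 32 (3.58% of all). With array quality weights it was 6 of 32, where 12.2% of all probe sets had an unadjusted p under 0.05: Gnao1, Gnaz, Gng5, Rgs14, the Gnb1 set 1367732_at and the second Gnb2 set. The slope of Gnaz was then -0.17.

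Gnao1 was lowest in rats 3 and 9, at 8.83 and 9.06, which also had plus maze values of 0. It was highest in rat 6, at 9.71, whose plus maze value of 18.7 was shared with rat 2, at 9.46. Pearson r was 0.600 and Spearman rho 0.706 (exact p = 0.0926 and 0.0405 by permutation, 0.999 and 1.00 adjusted). With rats 2 and 6 removed, whose plus maze values were the most extreme, r became 0.460, and in rats 1 to 7 it was 0.539 (exact p = 0.201 by permutation). Gng5 had a slope of 0.17 ± 0.085 (SE, n = 9; limma p = 0.0739, 0.999 adjusted), r = 0.574 and rho 0.479 (exact p = 0.102 and 0.194 by permutation, 0.999 and 1.00 adjusted). Its r was 0.707 in rats 1 to 7 and -0.0142 without rats 2 and 6, so that relation rests on those rats.

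Gnaz had r = -0.605 and rho -0.402 (exact p = 0.0976 and 0.284 by permutation, 0.999 and 1.00 adjusted), with -0.261 without rats 2 and 6 and -0.644 in rats 1 to 7. Rat 6 was the lowest of all for Gnaz, and the limma p without it was 0.620. Gnai2 had a slope of -0.14 ± 0.15 (SE, n = 9; limma p = 0.382, 0.999 adjusted), r = -0.294 and rho -0.176 (exact p = 0.451 and 0.648 by permutation, 0.999 and 1.00 adjusted). Its r was -0.347 without rats 2 and 6 and -0.0827 in rats 1 to 7. Other slopes were 0.062 for Gng3, 0.054 for Gng10, -0.034 for Gnb5 and -0.024 for Gnb2. The second Gnb2 set (1370867_at) had a slope of 0.042. In all, 23 of 32 members had a positive slope, with a median of 0.016, against a median of 0.011 over all probe sets.

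Sugar feeding ran from 0.8 to 4.7 with an SD of 1.19. The negative slope of smallest limma p was that of Gnai1, -0.15 ± 0.075 log2 units per SD (SE, n = 9; limma adjusted p = 1.00), and the positive one was that of Gnaz, 0.085 ± 0.047 (SE, n = 9; limma adjusted p = 1.00). The second Gnaz set (1387095_at) had a slope of the opposite sign, -0.11. None of the 32 members passed an adjusted p of 0.05 in limma (0% of all) and none an unadjusted p under 0.05, where 1.4% of all probe sets did. The exact permutation test of Pearson r also gave 0 members under 0.05. In rats 1 to 7 the limma count was 0 (2.75% of all).

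Gnai1 was lowest in rat 4, at 8.21, which had the highest sugar feeding, 4.7, and highest in rat 7, at 9.03. Pearson r was -0.585 and Spearman rho -0.333 (exact p = 0.0985 and 0.385 by permutation, both 1.00 adjusted). With rats 4 and 8 removed, whose feeding values were the most extreme, r became 0.238, and the limma p without rat 4 alone was 0.650, so the relation rests on rat 4. In rats 1 to 7 r was -0.551 (exact p = 0.210 by permutation). Gnaz had r = 0.587 and rho 0.390 (exact p = 0.113 and 0.306 by permutation, both 1.00 adjusted), with 0.438 without rats 4 and 8 and 0.643 in rats 1 to 7; rat 4 was also its highest rat.

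Rgs7 had a slope of 0.048 ± 0.034 (SE, n = 9; limma p = 0.196, 1.00 adjusted), r = 0.584 and rho 0.502 (exact p = 0.0943 and 0.172 by permutation, both 1.00 adjusted). Its r was 0.343 without rats 4 and 8 and 0.626 in rats 1 to 7. Rgs4 had a slope of -0.065 ± 0.046 (SE, n = 9; limma p = 0.194, 1.00 adjusted), r = -0.492 and rho -0.517 (exact p = 0.175 and 0.162 by permutation, both 1.00 adjusted). Its r was -0.168 without rats 4 and 8 and -0.470 in rats 1 to 7. The second Rgs4 set (1368506_at) had a slope of 0.0046. Other slopes were 0.056 for Gnas, 0.17 for Gnb1, -0.049 for Gng3 and -0.042 for Gng10. The Gnb1 sets 1367731_at and 1367732_at had -0.036 and -0.041, and the Gnas sets 1387906_a_at and 1390263_at had -0.069 and -0.0016. Positive slopes were found for 15 of 32 members, with a median of -0.0021, against 46.8% and -0.0030 over all probe sets.

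**Figure D3:**
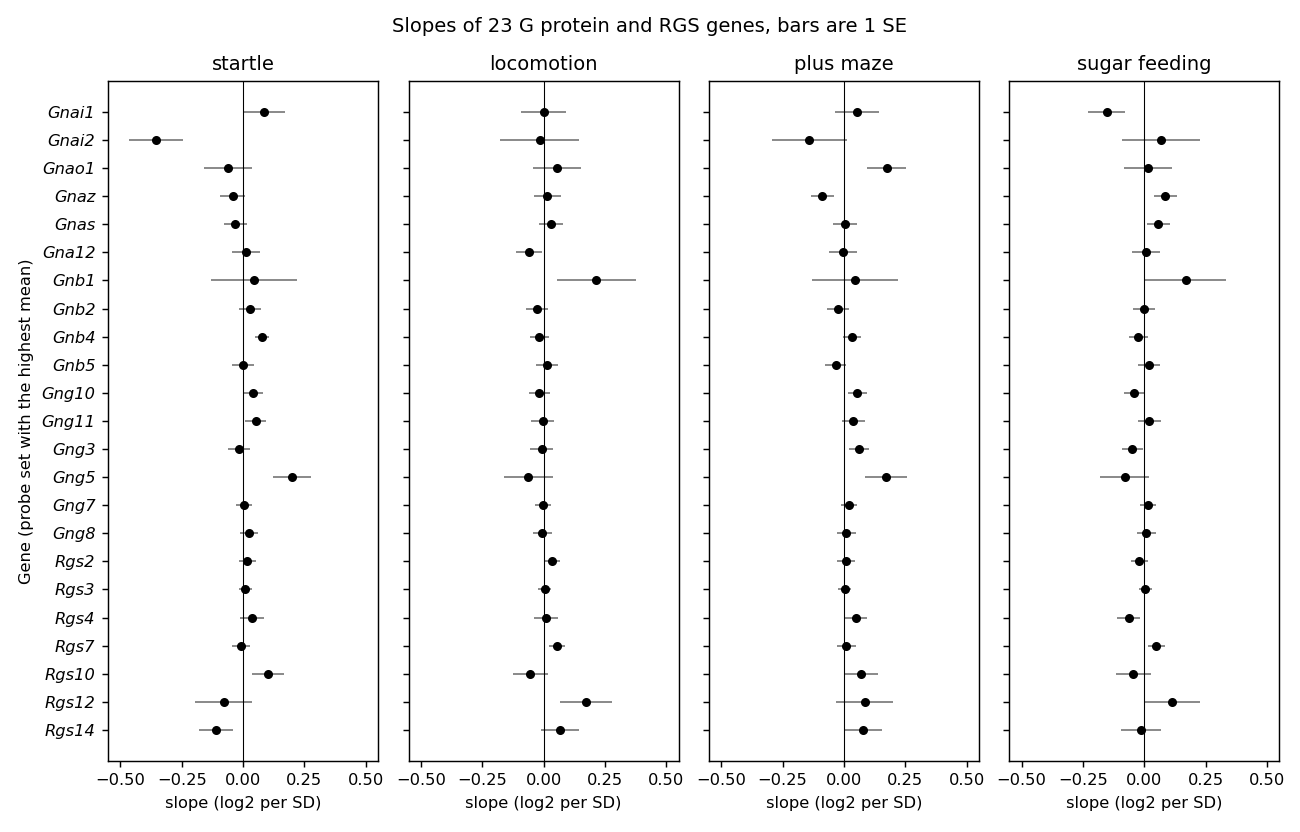
Slopes of the 23 genes tested, each by its probe set with the highest mean, in log2 units per SD of each of the 4 behaviours (horizontal axis); points are limma slopes and bars are 1 SE. Gnai2 has the slope farthest from 0 for startle, -0.35, and most other bars cross 0 or lie near it.

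Both rats 8 and 9 lay above, or both below, rats 1 to 7 for 6 of 32 members, 3 higher and 3 lower, against 26.9% of all probe sets (9.33% higher, 17.6% lower). Gnai2 averaged 8.48 in this pair and 7.55 in the other 7, a difference of 0.92 log2 units. Gnb1 by 1375705_at averaged 12.53 against 11.78, a difference of 0.75, where the mean of the other 7 includes rat 7 at 10.75. The other Gnb1 sets differed by -0.0017 (1367731_at) and -0.025 (1367732_at) and did not place the pair apart. The second Gnaz probe set averaged 5.44 against 4.62. In the lower direction Rgs10 averaged 9.07 against 9.46, Rgs4 10.99 against 11.18 and Gnb4 3.12 against 3.25. The median size of the difference over members was 0.12 log2 units, against 0.17 over all probe sets tested. Since the pair was chosen from these arrays, these values are a description with no test.

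Several genes are covered by more than 1 probe set tested, and these 11 pairs of probe sets mostly differed in how the rats ranked. The highest Pearson correlation was between Gnas sets 1369897_s_at and 1387906_a_at, with r = 0.679 and rho 0.712 (exact p = 0.0480 and 0.0379 by permutation, 0.447 and 0.208 adjusted over 11 pairs). This r was 0.430 without the 2 farthest rats and 0.662 in rats 1 to 7. By rank the Rgs3 sets 1367957_at and 1374528_at were highest, with r = 0.485 and rho 0.717 (exact p = 0.189 and 0.0369 by permutation, 0.618 and 0.208 adjusted). The Gnb1 sets 1375705_at and 1367731_at had r = -0.614 and rho -0.50 (exact p = 0.0812 and 0.178 by permutation, 0.447 and 0.489 adjusted). In rats 1 to 7 their r was -0.872 (exact p = 0.0155 by permutation), and it was 0.347 without the 2 farthest rats. Rat 7, which was lowest by 1375705_at, was highest by 1367731_at.

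The pair of Rgs4 sets had r = 0.0599 and rho 0.0167 over the 9 rats (exact p = 0.873 and 0.982 by permutation), but r was 0.858 in rats 1 to 7 (exact p = 0.00774 by permutation). Rats 8 and 9 were lowest by 1368505_at, with a mean of 10.99, and above the mean of 10.48 by 1368506_at, at 10.63 and 10.76. The pair of Gnaz sets had r = -0.135 and rho -0.119 (exact p = 0.737 and 0.772 by permutation), so the relations given for Gnaz with the plus maze and sugar feeding describe 1 probe set each. The Rgs2 sets had r = -0.254 and rho 0.0753 (exact p = 0.517 and 0.854 by permutation), and the Gnb2 sets r = 0.366 and rho 0.526 (exact p = 0.337 and 0.156 by permutation). The adjusted p of r over the 11 pairs was at least 0.447 throughout. Gnai2, Gng5, Gnb4, Gnao1, Gnai1 and Rgs7 had 1 probe set each among those tested.

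**Figure D4:**
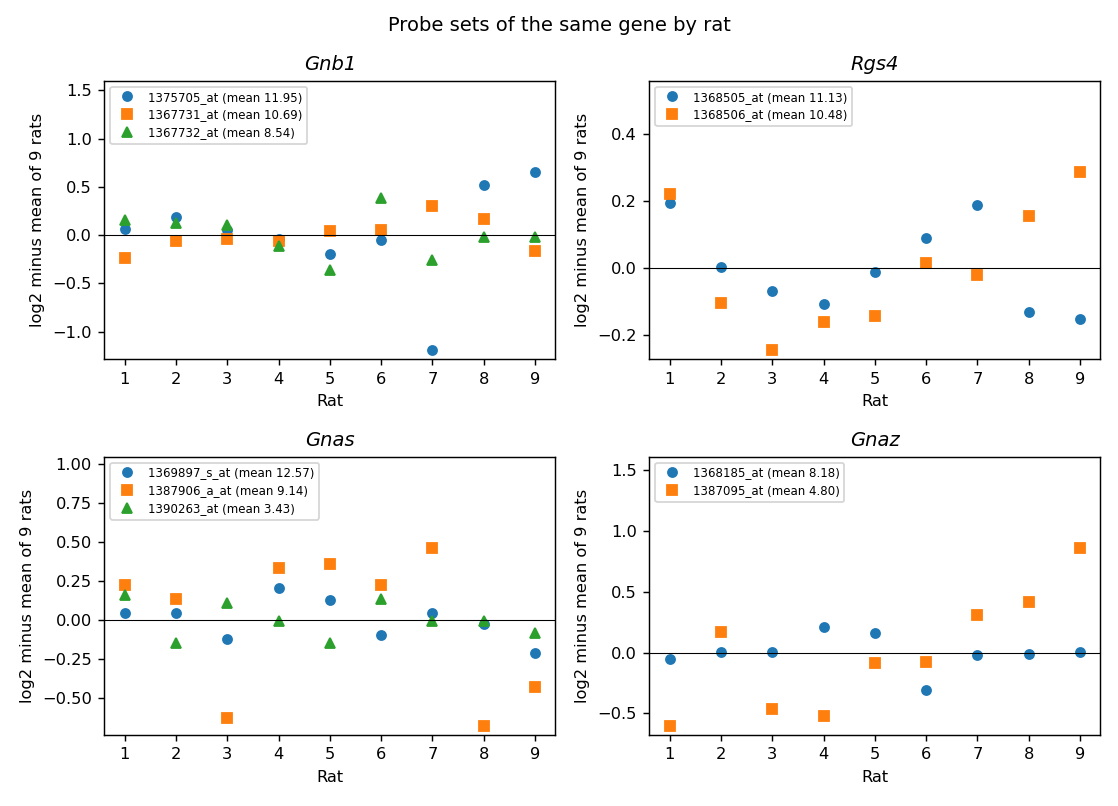
Log2 expression of each probe set minus its own mean over the 9 rats (vertical axis) by rat (horizontal axis) for Gnb1, Rgs4, Gnas and Gnaz, with 1 symbol per probe set and its mean log2 in the legend. For Gnb1, rat 7 is lowest by one set and highest by another, and for Rgs4 both sets differ in rats 8 and 9.

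Some subunits and regulators act as fixed partners, and their levels across rats were compared. Gnb5 and Rgs7, whose proteins form a stable dimer, had r = -0.195 and rho -0.0936 (exact p = 0.605 and 0.816 by permutation), and r was 0.0557 with the 2 most extreme rats for Gnb5 removed. Gnb1 and Gnao1 had r = -0.0367 and rho -0.400 (exact p = 0.929 and 0.291 by permutation). Gnb1 and Gng3 had r = -0.436 and rho -0.569 (exact p = 0.237 and 0.115 by permutation). Without the 2 farthest rats these r were -0.366 and -0.246.

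Rgs2 and Rgs4, which lie on the same chromosome, had r = 0.393 and rho 0.383 (exact p = 0.291 and 0.313 by permutation), and r was -0.0162 without the 2 farthest rats. With the activity-induced transcription factors, Rgs2 had r = 0.0690 and rho 0.25 for Egr1 (exact p = 0.852 and 0.521 by permutation). For Fos it had r = -0.114 and rho -0.0333 (exact p = 0.771 and 0.948 by permutation). With Cldn5, a tight junction protein of endothelium, Gng11 had r = 0.418 and rho 0.261 (exact p = 0.233 and 0.496 by permutation), with 0.872 without the 2 farthest rats. Over these 7 pairs the adjusted p of r, taken over all probe sets against the same anchor, was at least 0.716. In rats 1 to 7, r ran from -0.497 for Gnb5 with Rgs7 to 0.49 for Rgs2 with Rgs4. The other pairs listed had a partner that was not among the probe sets tested.

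The low end of the arrays was compared between rats because Gnb4 lies there, a comparison chosen after seeing the data. The median of the probe sets not tested, with the 15 members among them left out, was highest on the array of rat 3, at 2.51 log2 units. It was lowest on that of rat 2, at 2.38. Its r with startle was 0.627 and its rho 0.517 (exact p = 0.0734 and 0.162 by permutation, 0.294 for r adjusted over 4 measures), with 0.796 in rats 1 to 7 and 0.0313 without rats 1 and 3. Of the 15 members not tested, 10 had an r over 0.7 with this median, as did 5195 of all 6346 such probe sets, of which they are a part. Among the 32 tested, 5 did, against 1101 of 9520. They were the third Gnas set (1390263_at), at r = 0.931, the Rgs3 sets at 0.877 and 0.834, the second Gnb2 set (1370867_at) at 0.733 and Gnb4 at 0.713 (exact permutation p = 0.000805, 6.34e-05, 0.00564, 0.0216 and 0.0348, adjusted p = 0.00315, 0.000666, 0.0204, 0.0695 and 0.102 over 47 relations). Of the 15 not tested, 9 were highest in rat 3, where the median itself was highest. The same count over all probe sets not tested was not made, so it gives no result about the members. The part of the array's low end in the Gnb4 relation was not tested. Gnai2 had r = -0.391 and Gng5 r = 0.0571 with the same median (exact permutation p = 0.298 and 0.879).

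**Figure D5:**
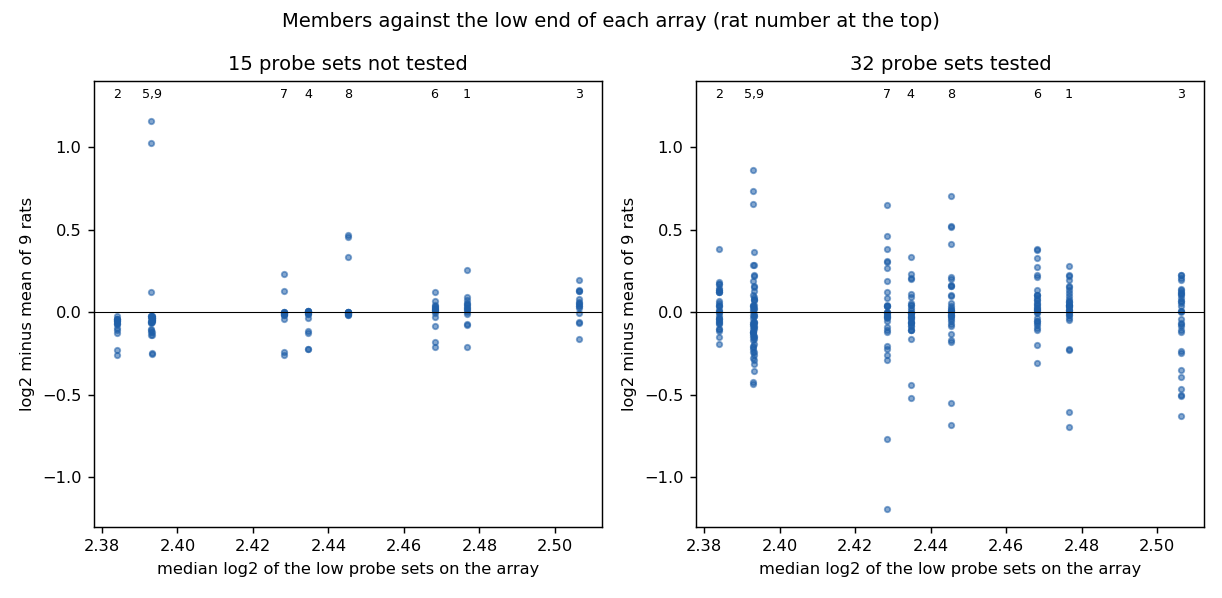
Log2 expression of members minus their own mean (vertical axis) against the median log2 of the low probe sets on the same array, members left out (horizontal axis), 1 point per probe set and rat, with rat numbers at the top. The 15 members not tested (left) are mostly lowest in rats 2 and 9 and highest in rat 3, while most of the 32 tested (right) scatter around 0 in every rat.

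The genes that act around the G proteins were counted from 6 gene lists, and none of their probe sets passed an adjusted p of 0.05 for any measure in limma. Of 10 genes tested for adenylyl cyclase and protein kinase A, 1 had an unadjusted p under 0.05 for startle: Prkaca, a catalytic subunit of protein kinase A, at -0.22 ± 0.051 (SE, n = 9; limma adjusted p = 0.359). In the same list and also under 0.05, Prkar1b, a regulatory subunit, had 0.085 for the plus maze (limma adjusted p = 0.999) and Adcy6, a cyclase, 0.12 for sugar feeding (limma adjusted p = 1.00). Among 5 genes of phospholipase C beta and protein kinase C, 1 was under 0.05 for startle, Prkcb at 0.096 (limma adjusted p = 0.376), and 0 for the other measures.

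Of 5 G protein helpers, 2 were under 0.05 for startle, 1 in each direction, and 0 for the other measures. Pdcl, a phosducin-like protein that assists in forming beta-gamma pairs, had a startle slope of 0.27 ± 0.075 (SE, n = 9; limma adjusted p = 0.359). Gpsm1, a modulator that binds Gi subunits, had -0.22 ± 0.076 (SE, n = 9; limma adjusted p = 0.359). Of 3 receptor kinases and arrestins, 1 was under 0.05, for startle only: Arrb2, which ends receptor signalling, had -0.21 ± 0.062 (SE, n = 9; limma adjusted p = 0.359). The 2 GIRK channel genes tested, targets of beta-gamma pairs, had 0 under 0.05 for any measure. Of 7 activity-induced genes, 1 was under 0.05 for startle, Egr1 at -0.25 (limma adjusted p = 0.372), and 1 for the plus maze, Fosb at -0.15 (limma adjusted p = 0.999). Their median slopes were -0.33 for startle, -0.32 for locomotion, -0.35 for the plus maze and -0.14 for sugar feeding, against medians over all probe sets of 0.021, -0.010, 0.011 and -0.0030. The shares of all probe sets under 0.05 given with each behaviour are the background for these counts.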

How the data were processed

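Prefrontal cortex RNA of 9 rats was measured on 1 Affymetrix array per rat. What the authors deposited is a table of log2 values, 1 per probe set and rat. They used GCRMA under R 2.6.2, according to the submitters' processing notes, which name no settings. This method estimates background from probe sequence, brings arrays to a common scale and combines probes into sets, and low values depend most on its background step.

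The table held 15923 probe sets, of which 57 controls were left out. The lowest 40% by mean were not tested. Gene names came from the platform annotation, which gave 312 probe sets several symbols; 2 of these, for Gnai1 and Gnai3 together, were left out, as were the subunits of the retina and taste cells. All sample columns of the table were used.

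Slopes of expression on each behaviour, scaled to its SD, were fitted with limma 3.58.1 (lmFit, eBayes; R 4.3.3), tested two-sided, with p-values adjusted by Benjamini-Hochberg over 9520 probe sets at 0.05. With 1 array per rat, differences between rats include those between arrays. Exact permutation tests of Pearson r and Spearman rho, also two-sided, used the 362880 pairings possible with 9 rats or the 5040 with 7, in Python 3.11.15 with numpy 2.4.6, scipy 1.17.1 and pandas 2.3.3, and r was computed again after the 2 rats most distant from the measure's median were removed. Figures used matplotlib 3.10.9. The fit was tested on simulated data with 200 of 9520 probe sets changed: a slope of 0.5 log2 units per SD was recovered for 81.0% with startle, 79.4% with locomotion, 81.5% with the plus maze and 80.6% with sugar feeding, and a slope of 0.25 for 23.6%, 24.6%, 25.9% and 25.9%. False calls at a slope of 0.5 averaged 8.7, 10.3, 18.9 and 17 per run in the same order.

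The members, lists and tests were chosen with earlier results of these data known. Named genes are those with the smallest limma p for each behaviour, 4 with positive and 4 with negative slopes, each gene by its brightest probe set; the 2 leading in each direction carry full statistics. Alternatives tried were testing all probe sets, a repeated quantile normalization, robust moderation with an intensity trend, the measure's ranks, rats 8 and 9 as a term or left out, weights for array quality, a single probe set per gene, and each rat left out. Promoter sequences came from RefSeq, build GRCr8.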

Additional observations from a re-analysis of the deposited data

Results flagged for a closer look

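In 3 of the 32 probe sets tested, 1 rat lay far from the other 8, with a gap to its nearest neighbour that took a large share of the whole range (Dixon's criterion). Gnaz in rat 6 was at 7.87 log2 units, where the next lowest rat was at 8.13. Gnb1 by probe set 1375705_at in rat 7 was at 10.75, where the next lowest was at 11.76. Rgs3 by probe set 1374528_at in rat 3 was at 3.85, where the next highest was at 3.68. Chance flags about 1 in 20 groups, and over all 9520 probe sets tested 20.4% met the same criterion, against 9.38% of the members. The second Gnaz and the other Gnb1 probe sets did not place the same rat apart.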

How the results depend on the processing

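The count of G protein and RGS probe sets at an adjusted p of 0.05 was 0 for every behaviour in limma under all 68 alternatives run. At an unadjusted p under 0.05 the startle count of 4 became 8 of 47 with no filter, and 3 to 5 when each rat was left out in turn. The locomotion count of 1 became 2 with no filter and with quantile normalization again. It became 0 with ranks of the measure, a term for rats 8 and 9, both rats left out (4.37% of all probe sets), array quality weights and 1 probe set per gene, and 0 to 1 with each rat left out. The plus maze count of 1 became 2 without rats 8 and 9 (3.58% of all probe sets), 6 with array quality weights (12.2% of all probe sets) and 0 with 1 probe set per gene, and 0 to 2 with each rat left out. The sugar feeding count of 0 became 1 with a term for rats 8 and 9 and with array quality weights, and 0 to 2 with each rat left out. Where no share of all probe sets stands beside a count, the count describes the setting and gives no result about the members. Slopes of named genes kept their direction in 251 fits and turned in 5, not counting those that leave out 1 rat. The 251 include fits with no filter, with the intensity trend and with 1 probe set per gene. Those fits use the same values of the same probe set, so no slope could turn in them. The 5 were Rgs12 with startle, at 0.012 with a term for rats 8 and 9 and 0.058 without them, Gng5 with locomotion, at 0.011 and 0.032, and Rgs10 with locomotion, at 0.00067 with the term. With each rat left out in turn, 280 slopes kept their direction and 8 turned. The ranges that crossed 0 were -0.14 to 0.0045 for Rgs14 and -0.19 to 0.038 for Rgs12 with startle, -0.0045 to 0.048 for Rgs2, -0.095 to 0.0030 for Gna12, -0.049 to 0.021 for Gnb2 and -0.19 to 0.019 for Gng5 with locomotion, -0.044 to 0.0059 for Gnb2 with the plus maze and -0.014 to 0.072 for Gnas with sugar feeding. Of the partner pairs, after quantile normalization again r was 0.204 for Gnb5 and Rgs7, 0.0108 for Gnb1 and Gnao1 and 0.0521 for Rgs2 and Fos, and without rats 8 and 9 it was 0.243 for Gnb1 and Gnao1. None of these values passed a test in either form, and the cause was not tested. No paired analysis was possible because the labels define 1 group. Gnb4 lay at the lowest mean tested, and the part of the arrays' low end in its values was not tested.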

Other observations

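Around the G proteins, several partner genes also had rats 8 and 9 both above, or both below, rats 1 to 7. Grk2, a kinase that phosphorylates active receptors, was 0.89 log2 units higher in the pair, Gpsm1, which binds Gi subunits, 0.53 higher and Gprin1, a neurite protein that binds Go, 0.37 higher. Prkca, a protein kinase C, was 0.69 higher. Plcb4 and Plcb1, phospholipase C beta enzymes, differed by -0.80 and -0.47, Prkcb by -0.23 and Pdcl, a helper of beta-gamma assembly, by -0.56. Among the lists, this held for 4 of 5 genes of phospholipase C beta and protein kinase C, 3 of 5 G protein helpers, 2 of 10 genes of adenylyl cyclase and protein kinase A, 1 of 3 receptor kinases and arrestins, and 0 of 2 GIRK channels and 0 of 7 activity-induced genes. Over all probe sets tested it held for 26.9%, and the pair was named from the same values.

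Of marker lists set against members across rats, Rgs10 had r = 0.571 and rho 0.533 with the 4 microglial markers (exact p = 0.112 and 0.148 by permutation), and r was 0.723 in rats 1 to 7. With the 3 endothelial markers Gng11 had r = 0.574 and rho 0.706 (exact p = 0.108 and 0.0392 by permutation), and r was 0.50 in rats 1 to 7. The adjusted p of r over 7 such relations was at least 0.392. Gng11, at a mean of 3.83, had r = 0.680 with the median of the low probe sets (exact permutation p = 0.0377, adjusted p = 0.104). Of the endothelial markers, Flt1 and Vwf had means of 3.74 and 3.66, near the lowest mean tested, 3.22, and Cldn5 had 9.26. The part of the arrays' low end in the Gng11 relation was not tested.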
